A study of Homo sapiens with 15 samples.

Results

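The albumin gene family consists of 4 related genes on human chromosome 4 that encode carrier proteins of blood plasma: ALB (albumin), AFP (alpha-fetoprotein), AFM (afamin) and GC (the vitamin D binding protein). They were taken by symbol from the deposited count table, in which they are 4 of 35012 gene symbols. ALB and AFP were among the 14621 genes with enough counts to be tested across the whole table, and AFM and GC fell below that filter. The 15 libraries come from HepG2, an established human liver cancer cell line, sequenced 5 days after lentiviral transduction and puromycin selection. The NS group (4 libraries) received the non-silencing hairpin shNS, the BRG1 group (4) a hairpin against BRG1, the BRM group (3) a hairpin against BRM, and the Double group (4) hairpins against both. BRG1 (gene SMARCA4) and BRM (gene SMARCA2) are the alternative ATPase motors of the SWI/SNF complexes, which move nucleosomes on DNA. All groups therefore share lentiviral transduction, polybrene and drug selection, and no untransduced group was analysed here. Whether Double, with hairpins against both targets, received the same amount of virus as the other groups was not examined. The labels name no hairpin sequence, do not say how many hairpins per target were used, and do not say whether replicates were separate cultures, and p-values are therefore read against variation among these libraries, part of which may be technical.

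Albumin and its relatives descend from a common ancestral gene and fold into repeated domains held by disulphide bonds. Hepatocytes secrete all 4. Albumin carries fatty acids, hormones and drugs and holds water in the circulation. Alpha-fetoprotein is the main plasma protein of the fetus, is silenced in the liver after birth and returns in many liver tumours, HepG2 among them. Afamin binds vitamin E and Wnt proteins, and the product of GC carries vitamin D metabolites and actin released from damaged cells. The genes are known as classical targets of the hepatocyte factors HNF4, C/EBP and FOXA, which bind short promoters just before the start sites and distant enhancers shared across the cluster.

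ALB, AFP and AFM sit side by side. In GENCODE v29 on GRCh38, ALB (ENSG00000163631.16) spans chromosome 4, 73397114 to 73421412, AFP (ENSG00000081051.7) 73431138 to 73456174 and AFM (ENSG00000079557.4) 73481683 to 73504001, all on the plus strand. The gap from ALB to AFP is 9.725 kb and that from AFP to AFM 25.5 kb. GC (ENSG00000145321.12) lies apart on the minus strand at 71741693 to 71804041, 1593 kb from ALB. All are protein-coding, with 15 exons in the reference transcripts of ALB, AFP and AFM and 13 in that of GC. Aligned residues of the annotated coding sequences were identical at 40.1% between ALB and AFP, 39.6% between AFP and AFM and 36% between ALB and AFM, and at 24.3 to 26.6% between GC and each of the others. The transcripts are still distinct for read assignment: no stretch of 31 bases was shared between any pair of members, and 2 of 3685 such stretches in ALB (0.0543%) occurred in another gene, against 0 in AFP, AFM and GC.

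The 150 bases before the start sites are shown because ALB and AFP moved together and because promoters of this kind are bound by factors examined with them below. Sequences are from the RefSeq promoter table on GRCh38.p14, plus strand, chr4:73404137-73404286 for ALB (start site 73404287), chr4:73436071-73436220 for AFP and chr4:73481595-73481744 for AFM; 3 of the 4 members matched, and all 3 start sites lie inside the GENCODE gene spans. Capitals mark exact matches on either strand to letters chosen after the promoters had been read: CCAAT and TATAAA (the TATA box).
ALB: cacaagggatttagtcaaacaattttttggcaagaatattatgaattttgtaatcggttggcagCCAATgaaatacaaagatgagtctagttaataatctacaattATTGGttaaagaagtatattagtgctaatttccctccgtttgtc
AFP: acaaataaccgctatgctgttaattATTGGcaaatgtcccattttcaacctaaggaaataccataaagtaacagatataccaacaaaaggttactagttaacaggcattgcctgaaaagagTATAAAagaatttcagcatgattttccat
AFM: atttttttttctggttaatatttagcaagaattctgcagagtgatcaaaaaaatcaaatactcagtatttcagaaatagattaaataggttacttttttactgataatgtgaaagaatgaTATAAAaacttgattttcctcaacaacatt
The ALB promoter held CCAAT 86 bases before the start on the plus strand and 44 bases before it on the minus strand. The AFP promoter held CCAAT 125 bases before the start on the minus strand and TATAAA at 29. Within this window AFM held only the TATAAA, at 30 bases. Among 35116 promoter windows of the same length, 6.71% held TATAAA and 23.5% CCAAT. The letters TGTTTAC, a FOXA-type site, occurred in 1.73% of windows and in none of the 3. A match of letters is a description and shows no binding.

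Library totals lay between 11500149 and 27187991 estimated counts. In every group the libraries numbered 1 and 2 differed from those numbered 3 and 4 in the share of counts from the 13 mitochondrially encoded genes, which was 4.97 to 8.33% in the former and 1.33 to 3.55% in the latter. What libraries of the same number share is not labelled, and the BRM group has no library 4, so member values are given below within each of these library sets as well as pooled. The hairpins reached their targets: SMARCA4 stood at 307 ± 6.98 CPM (counts scaled to the library, mean ± SD, n = 4) in NS against 27.8 ± 2.31 (n = 4) in BRG1 and 46.2 ± 6.09 (n = 4) in Double, and SMARCA2 at 39.2 ± 4.05 (n = 4) in NS against 4.38 ± 2.22 (n = 3) in BRM and 2.56 ± 0.299 (n = 4) in Double. The knockdowns were not equal: SMARCA4 was 1.66-fold higher in Double than in BRG1 (edgeR, adjusted p = 0.00858). SMARCA2 stood at 25.8 ± 3.64 CPM (n = 4) in BRG1, 1.52-fold lower than in NS, or −0.61 on the log2 scale. That difference did not pass (edgeR, adjusted p = 0.0712) but has an adjusted p of 0.0219 in the authors' deposited table. The libraries carried hepatocyte transcripts, with 6 of 8 hepatocyte markers above 100 CPM in every NS library.

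ALB was among the genes with the most counts in these cells, and its level differed between the hairpin groups. In NS libraries 1 to 4 it held 6371, 6487, 8574 and 8178 CPM. With the BRG1 hairpin it held 873, 683, 2910 and 3377 CPM, and in the Double group 2567, 2435, 1383 and 2450 CPM. The 3 BRM libraries held 17425, 19254 and 13871 CPM. Every BRG1 and every Double library lay below every NS library, and every BRM library lay above all of them. The share of all genes whose libraries separate in this way was not counted, here or for the other members below. By count, ALB ranked first of all genes in each BRM library (rank 1), 5 to 11 in NS, 22 to 47 in Double and 19 to 109 in BRG1.

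AFP, the fetal counterpart, showed the same order of groups. NS libraries 1 to 4 held 2436, 2607, 5281 and 5215 CPM. The BRG1 libraries held 540, 425, 1347 and 1686 CPM and the Double libraries 1201, 1193, 799 and 1225 CPM. The BRM libraries held 9733, 6683 and 8199 CPM. Again the BRG1 and Double libraries were all under the lowest NS library and the BRM libraries all above the highest. Within NS the libraries 3 and 4 held more AFP than 1 and 2 by 1.06 ± 0.24 on the log2 scale (edgeR, adjusted p = 0.00516; 35.5% of genes passed in this comparison), while ALB differed by 0.38 ± 0.24 (adjusted p = 0.237).

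**Figure D1:**
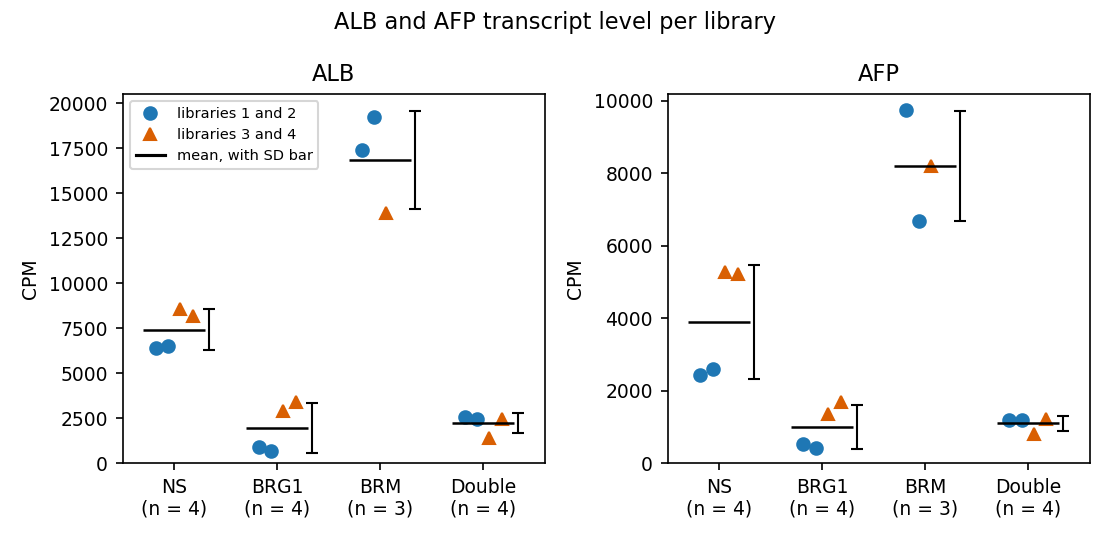
ALB and AFP in each library, in CPM on an axis from 0, by hairpin group; points are libraries, marked by library set, lines are group means and the bars beside them SD. The BRM libraries sit above the NS libraries and the BRG1 and Double libraries below them for both genes.

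Scaled to transcript length, the members span several orders of magnitude. In NS, ALB stood at 3271 ± 502 CPM per kb (SD, n = 4) and AFP at 1564 ± 634 (n = 4). In the BRM group the levels were 7446 ± 1210 and 3303 ± 614 CPM per kb (n = 3), in the Double group 976 ± 245 and 444 ± 82.1 (n = 4), and in the BRG1 group 867 ± 610 and 402 ± 247 (n = 4). Together ALB and AFP took a median of 2.33% of all counts with the BRM hairpin (1.77 to 2.69%), 1.13% with NS (0.930 to 1.31%), 0.371% in Double (0.229 to 0.414%) and 0.283% with the BRG1 hairpin (0.124 to 0.490%). In these bulk samples, fewer cells making a transcript and less of it per cell cannot be told apart.

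BRG1 knockdown lowered both tested members by a similar amount. The ALB level fell by 1.92 ± 0.44 in log2 units (± SE), 3.78-fold, with a 95% interval of −2.86 to −0.97 (edgeR quasi-likelihood test, Benjamini-Hochberg adjusted p = 0.00609). AFP fell by 1.96 ± 0.42, 3.89-fold, with an interval of −2.86 to −1.06 (edgeR, adjusted p = 0.00386). Among all tested genes 22.5% passed in this comparison and 9.97% passed as lower, and a change at least as large in size was seen for 5.66% of genes in the case of ALB and 5.30% in the case of AFP. With a block for the replicate number, 5318 genes passed in place of 3284, and both members still passed.

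Knockdown of both ATPases also lowered both members. ALB fell by 1.75 ± 0.44 on the log2 scale, 3.35-fold (interval −2.69 to −0.80; edgeR, adjusted p = 0.0108), and AFP by 1.82 ± 0.42, 3.52-fold (−2.71 to −0.92; adjusted p = 0.00633). Of the tested genes 21.6% passed here and 9.90% passed as lower. The blocked fit passed 5200 genes in place of 3165 and again both members.

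With the BRM hairpin the values moved the other way, but the pooled test did not pass. ALB was higher by 1.19 ± 0.46, 2.28-fold, with an interval of 0.21 to 2.17 (edgeR, adjusted p = 0.104), and AFP by 1.08 ± 0.44, 2.11-fold, with an interval of 0.15 to 2.01 (adjusted p = 0.121). In this comparison 13.9% of genes passed, 7.66% as higher. Both members passed once a term for the 2 library sets entered the model, at 1.32 (edgeR, adjusted p = 0.0272) for ALB and 1.31 (adjusted p = 0.0105) for AFP. The 3 comparisons with NS share its libraries.

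The difference between the single knockdowns passed by a wide margin. ALB was lower in BRG1 than in BRM by −3.10 ± 0.48, 8.59-fold (edgeR, adjusted p = 0.000185), and AFP by −3.04 ± 0.45, 8.21-fold (adjusted p = 0.000142), where 16.7% of tested genes were called lower. Double was lower than BRM by −2.93 ± 0.48 for ALB (7.63-fold; edgeR, adjusted p = 0.000617) and −2.89 ± 0.45 for AFP (7.43-fold; adjusted p = 0.000464), where 9.74% were called lower. Double against BRG1 gave 0.17 ± 0.43 for ALB (interval −0.74 to 1.09; edgeR, adjusted p = 0.881) and 0.14 ± 0.41 for AFP (−0.72 to 1.01; adjusted p = 0.895), in a comparison where 10.8% passed. The order of the group levels is thus BRM, NS, Double and BRG1 for both genes, and in the pooled fit neither BRM and NS nor Double and BRG1 were separated by the test. The interaction, which asks whether the joint effect departs from the sum of the single effects on the log2 scale, was −1.02 ± 0.63 for ALB (edgeR, adjusted p = 0.593) and −0.93 ± 0.60 for AFP (adjusted p = 0.614), and 0.499% of all genes passed it.

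**Figure D2:**
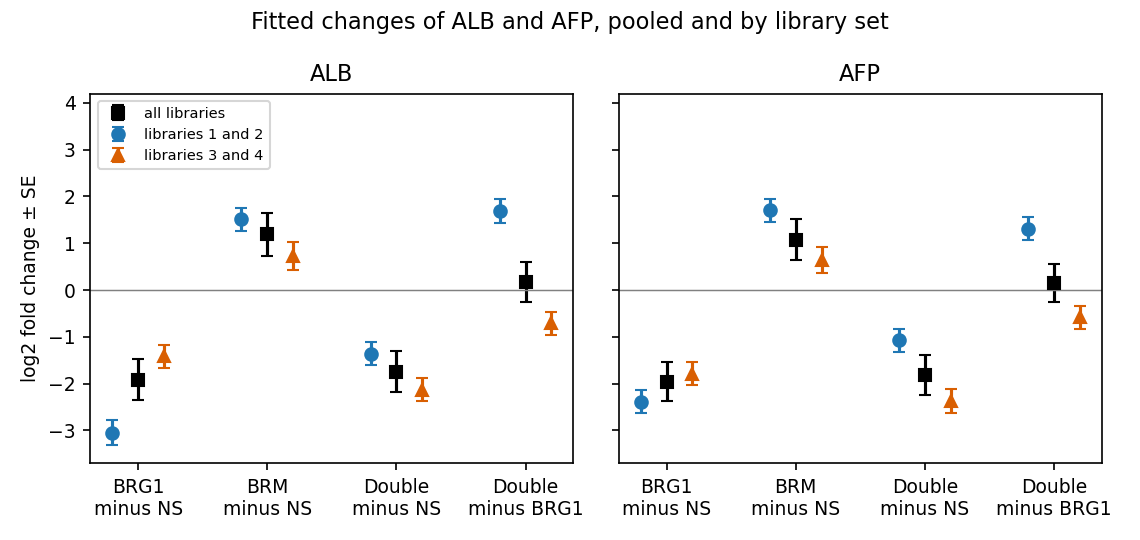
Fitted log2 fold changes of ALB and AFP for each hairpin group against NS and for Double against BRG1, from all libraries and within each library set, with SE as bars. Double minus BRG1 lies above 0 in libraries 1 and 2 (1.69 for ALB) and below 0 in libraries 3 and 4 (−0.71), with the pooled value (0.17) between them.

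BRG1 and Double took different places in the library sets. In libraries 1 and 2, ALB was 8.27-fold lower in BRG1 than in NS and 2.57-fold lower in Double. In libraries 3 and 4, it was 2.66-fold lower in BRG1 and 4.37-fold lower in Double. The BRG1 effect on ALB differed between the sets by 1.63 ± 0.35 on the log2 scale (edgeR, adjusted p = 0.0333; 2.48% of genes passed this test). The Double effect differed by −0.77 (adjusted p = 0.234; 3.71% of genes passed).

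AFP was 5.23-fold lower in BRG1 in libraries 1 and 2 and 3.46-fold lower in libraries 3 and 4, a difference of 0.60 on the log2 scale (edgeR, adjusted p = 0.306). In Double it was 2.11-fold and 5.19-fold lower, a difference of −1.30 (adjusted p = 0.0507).

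Set directly against each other, Double exceeded BRG1 in libraries 1 and 2 by 1.69 ± 0.25 for ALB (3.22-fold; edgeR, adjusted p = 0.000251) and 1.31 ± 0.24 for AFP (2.48-fold; adjusted p = 0.00118). In libraries 3 and 4 the values were −0.71 ± 0.25 (adjusted p = 0.0726) and −0.58 ± 0.24 (adjusted p = 0.130). The sets differed by −2.40 ± 0.35 for ALB (edgeR, adjusted p = 0.00330) and −1.90 ± 0.34 for AFP (adjusted p = 0.00892), a test passed by 3.86% of genes and chosen after the values within sets had been seen.

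The BRM difference was also unequal in size. In libraries 1 and 2 ALB was higher by 1.51 ± 0.25 (2.85-fold; edgeR, adjusted p = 0.000653) and AFP by 1.70 ± 0.24 (3.26-fold; adjusted p = 0.000249). Against NS libraries 3 and 4, the remaining BRM library gave 0.73 ± 0.29 (adjusted p = 0.0898) and 0.64 ± 0.29 (adjusted p = 0.121). The sets differed by −0.78 for ALB (adjusted p = 0.265) and −1.06 for AFP (adjusted p = 0.140), with 2.26% of genes passing. That lone library is assumed in the model to vary like the others.

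The balance of fetal to adult transcript, read as the AFP to ALB count ratio within a library, varied between 0.347 and 0.638. It was 0.382, 0.402, 0.616 and 0.638 in NS libraries 1 to 4, and 0.618, 0.622, 0.463 and 0.499 in BRG1. The BRM libraries held 0.559, 0.347 and 0.591, and the Double libraries 0.468, 0.490, 0.578 and 0.5. With all libraries pooled the groups overlapped. Against NS, the mean log2 ratio differed by 0.14 in BRG1 (two-sided exact permutation test, p = 0.6), −0.03 in BRM (exact p = 0.971) and 0.03 in Double (exact p = 0.943), all with adjusted p = 0.971 over the 3 comparisons, where the smallest p possible is 0.0286 before adjustment. Within sets the BRG1 and Double ratios lay above NS in libraries 1 and 2 (0.66 and 0.29 on the log2 scale). They lay below it in libraries 3 and 4 (−0.38 and −0.22), with no overlap with NS in either set. With 2 libraries against 2 the exact permutation p cannot go below 0.333, so these within-set differences could not pass.

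**Figure D3:**
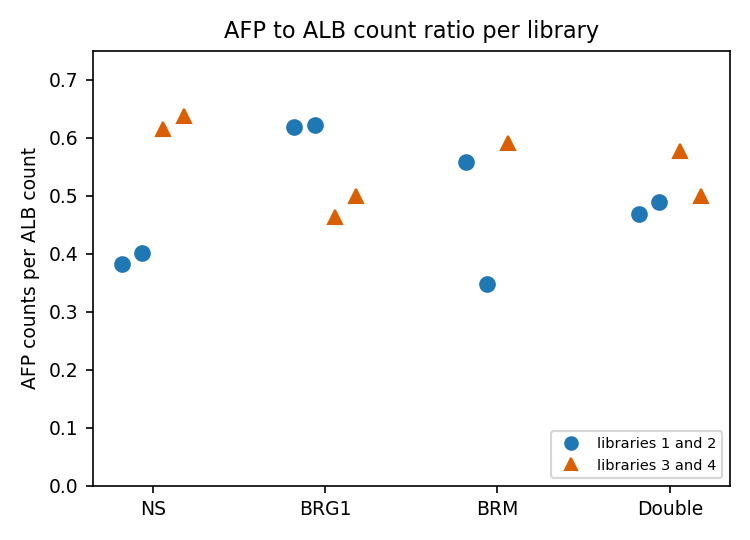
AFP counts per ALB count in each library by hairpin group, on an axis from 0, with points marked by library set. The NS libraries split into a low pair near 0.39 and a high pair near 0.63, and the groups overlap.

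AFM, the third gene of the row, was barely transcribed into counts. The NS libraries 1 to 4 held 27, 14, 3 and 3 counts, or 1.31, 1.12, 0.277 and 0.139 CPM. The BRG1 libraries held 1, 1, 0 and 1 counts, the Double libraries 0, 1, 0 and 1, and the BRM libraries 6, 1 and 8. A floor of 3 counts in a library corresponds to 0.105 to 0.277 CPM, so no BRG1 or Double library rose above it.

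Summed over libraries, AFM had 3 counts in BRG1 against 47 in NS, a ratio of 0.0475 after scaling (exact 95% interval for counting error 0.00945 to 0.147), and 2 in Double, a ratio of 0.0352 (0.00414 to 0.135). The CPM of both groups lay wholly below NS (exact permutation test over libraries, two-sided, p = 0.0286, the smallest the design allows; 0.0429 adjusted over the 6 tests of AFM and GC). With BRM, 15 counts gave a ratio of 0.386 (0.201 to 0.703), and the libraries overlapped NS (exact permutation p = 0.371). With any 1 of the BRG1 libraries left out the exact permutation p of the BRG1 difference rose to 0.171, and with any 1 of the Double libraries left out that of the Double difference to 0.114 to 0.171, although the libraries still did not overlap. An edgeR fit without the filter on low counts called AFM lower in BRG1 by −4.14 ± 0.95 (adjusted p = 0.00686) and in Double by −4.44 ± 1.01 (adjusted p = 0.00657), but not in BRM (−1.30, adjusted p = 0.49). Most NS counts came from libraries 1 and 2.

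GC was also close to the floor in NS, with 4, 2, 3 and 1 counts in libraries 1 to 4. The BRM libraries held 12, 14 and 8 counts, or 0.966, 0.700 and 0.369 CPM, above the NS mean of 0.169 ± 0.0954 CPM (SD, n = 4). In BRG1 the libraries held 0, 0, 1 and 0 counts and in Double 3, 0, 0 and 1.

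The 34 BRM counts of GC against 10 in NS gave a ratio of 4.11 (exact 95% counting interval 1.99 to 9.33; exact permutation p = 0.0286, adjusted 0.0429). The single BRG1 count gave a ratio of 0.0743 (0.00171 to 0.523; exact permutation p = 0.0286, adjusted 0.0429), and the 4 Double counts 0.331 (0.0758 to 1.15; exact permutation p = 0.143, adjusted 0.172). The unfiltered edgeR fit did not call GC in any of the 3 comparisons: −3.24 in BRG1 (adjusted p = 0.0714), 1.98 ± 0.83 in BRM (adjusted p = 0.200) and −1.51 in Double (adjusted p = 0.403). GC passed the filter when only libraries 1 and 2 were fitted and when BRM library 3 was left out. It did so only through BRM libraries 1 and 2, with 12 and 14 counts. GC was then called lower in BRG1 (−4.75, edgeR adjusted p = 0.0496, and −3.25, adjusted p = 0.0484). Because the BRM libraries admitted GC, these calls are no separate support. The exact permutation p was 0.0571 without any 1 of the BRG1 libraries, 0.0667 without any 1 of the BRM libraries and 0.1 when any 1 NS library was dropped from the BRM comparison. The values of 0.0667 and 0.1 are the smallest that such numbers of libraries allow, so the BRM difference could not pass there. The call for GC therefore depends on the test, and in BRG1 also on single libraries. For BRM, leaving out libraries cannot show whether it does. Intervals cover counting error only, because the reads carry no molecular identifiers and may repeat a molecule.

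**Figure D4:**
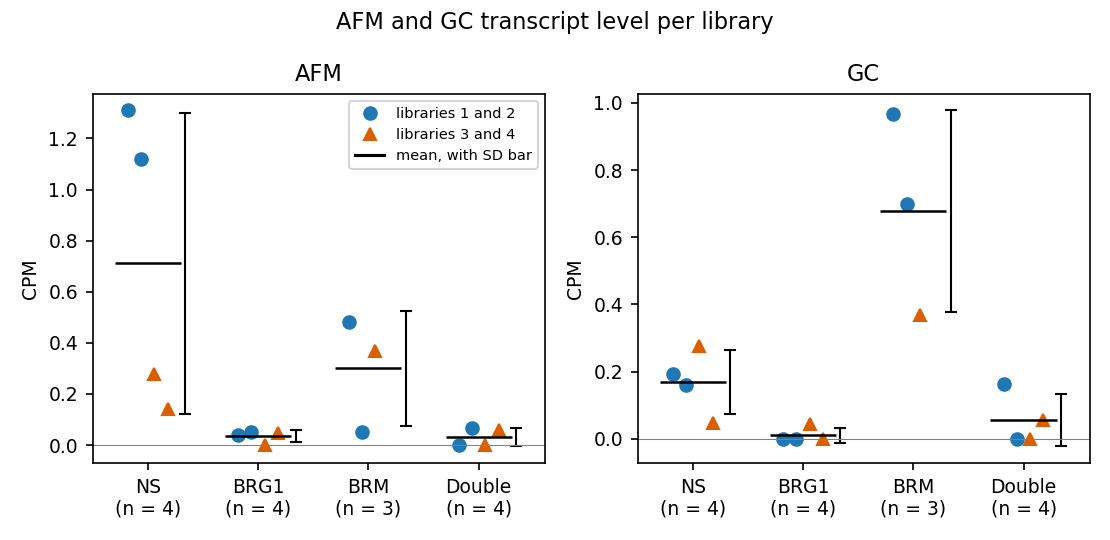
AFM and GC in each library by hairpin group, in CPM, with points marked by library set, lines at the group means and SD bars beside them. AFM reaches 1.31 CPM in NS and stays under 0.1 CPM in BRG1 and Double, and GC reaches 0.966 CPM with the BRM hairpin.

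The authors' deposited tables, made with their own model, give values close to these. For BRG1 the authors' deposited table lists −1.94 for ALB (adjusted p = 7.36e-05), −1.98 for AFP (adjusted p = 2.23e-05), −4.40 for AFM (adjusted p = 0.00212) and −3.58 for GC (adjusted p = 0.0363). For both hairpins the authors' deposited table lists −1.77, −1.84, −4.76 and −1.64, the last with an adjusted p of 0.346. For BRM the authors' deposited table lists 1.16 for ALB (adjusted p = 0.0605), 1.05 for AFP (adjusted p = 0.0843) and 2.03 for GC with no adjusted p. The tables do not name their reference group, and the sign of SMARCA4 and SMARCA2 in them matches NS as the reference.

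Across the 15 libraries and 11904 genes averaging 2 CPM or more, ALB and AFP were each other's closest gene, with a Pearson r of 0.983 in log2 CPM, close to the values of the next genes. The next genes for ALB were SERPINA7 (thyroxine-binding globulin, a plasma hormone carrier) at 0.982, A2M (alpha-2-macroglobulin, a plasma protease inhibitor) at 0.981, FGG (the fibrinogen gamma chain) at 0.98 and GNG4 (a G protein gamma subunit) at 0.979. For AFP they were FGG and A2M at 0.982, IDH1 (cytosolic isocitrate dehydrogenase) at 0.98 and HIRA (a histone chaperone) at 0.974. These points share 4 groups and 2 library sets, and within group and set the r of ALB and AFP was 0.699. With the mean of each library set removed, FGG came first for ALB at 0.994 and AFP had rank 4 at 0.986, while ALB stayed first for AFP at 0.986; 4 of the 5 genes nearest ALB and 3 of the 5 nearest AFP were the same.

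These genes were chosen for following ALB or AFP over these same libraries, so the signs of their group differences are a description and no separate evidence. Against NS, SERPINA7 stood at −2.37 ± 0.37 on the log2 scale (± SE) in BRG1, 1.34 ± 0.37 in BRM and −1.55 ± 0.36 in Double. FGG stood at −2.20 ± 0.68, 1.61 ± 0.70 and −2.10 ± 0.68, and A2M at −2.22 ± 0.41, 0.55 ± 0.42 and −1.92 ± 0.41, in the same order.

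Other abundant proteins that the liver secretes into plasma were set beside ALB. Of 16 listed and tested, 8 fell and 0 rose in BRG1 (median −1.48, against 0.02 over all genes). In BRM 4 rose and 2 fell (median 1.14, against 0.03), and in Double 2 fell (median −0.58, against 0.02). Over all tested genes 9.97% passed as lower in BRG1 and 9.90% in Double, and 13.9% passed in BRM in either direction. The count in Double is near its share. FGB, the fibrinogen beta chain, went from −2.28 in BRG1 (edgeR, adjusted p = 0.0130) to 2.87 in BRM (adjusted p = 0.00810). TF (transferrin, the iron carrier) fell by 1.90 in BRG1 (adjusted p = 0.00215). ORM1 (an acute-phase carrier protein) fell by 1.56 in BRG1 (edgeR, adjusted p = 0.00187) and rose by 1.27 in BRM (adjusted p = 0.0154). In Double, ORM1 averaged 332 ± 130 CPM, above its NS mean of 250 ± 23.1 (SD, n = 4 each), opposite to ALB. TF (1125 against 1726 CPM) and FGB (46.3 against 132.5) were below their NS means in Double. None of these differences in Double passed. TTR (transthyretin, carrier of thyroxine and retinol) fell in all 3 comparisons, with log2 values of −1.41, −1.55 and −2.99 (edgeR, adjusted p = 0.000212, 0.000534 and 1.15e-06), so that in BRM it went opposite to the values of ALB.

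Of 17 transcription factors known to act on the ALB and AFP genes, 6 fell in BRG1 (median −0.80), 1 rose and 1 fell in BRM (median 0.25), and 1 rose and 4 fell in Double (median −0.51). Over all tested genes 22.5% passed in either direction in BRG1, 13.9% in BRM and 21.6% in Double. In a single direction, 9.97% passed as lower in BRG1, 7.66% as higher in BRM and 9.90% as lower in Double. The counts of this list and of the small lists that follow are read against those shares. The BRM count, with both directions together, is no larger than its share of 13.9%. NR1H4, the bile acid receptor FXR, fell by 2.73 ± 0.39 in BRG1 (edgeR, adjusted p = 0.000213), rose by 1.31 ± 0.39 in BRM (adjusted p = 0.0365) and fell by 1.53 ± 0.37 in Double (adjusted p = 0.00870), the same signs as ALB and AFP. PROX1, a homeobox factor of early liver, fell in all 3 comparisons, with log2 values of −1.02, −0.88 and −1.57 (edgeR, adjusted p = 0.000360, 0.00356 and 1.46e-05). FOXA1, a pioneer factor that opens liver enhancers, fell by 0.89 in BRG1 (adjusted p = 0.00334), and its relative FOXA2 fell by 0.81 in BRG1 (adjusted p = 0.0473) and by 1.27 in Double (adjusted p = 0.00451).

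The remaining 2 that fell in BRG1, chosen after their values were seen, were the nuclear receptors HNF4A, by 0.81 (edgeR, adjusted p = 0.0465), and NR5A2, by 1.32 (adjusted p = 0.0311). NR5A2 also fell in Double, by 1.63 (adjusted p = 0.0121). HNF4A and FOXA1 did not pass in Double, at 0.08 and −0.15 (edgeR, adjusted p = 0.878 and 0.634). Neither passed in BRM, at 0.48 and 0.31 (adjusted p = 0.325 and 0.356).

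Of 5 genes listed as repressors of AFP, 1 rose in BRG1, 1 fell in BRM, and 1 rose and 2 fell in Double. The medians were −0.31, −0.02 and −0.76. Whether each of them represses AFP in these cells was not examined. In BRG1 and BRM 1 of 5 is about the share of all genes called in either direction. ZHX3 rose by 0.79 in BRG1 (edgeR, adjusted p = 0.000873) and by 0.93 in Double (adjusted p = 0.000243). ZHX2, known from mouse strains in which AFP stays on after birth, fell by 0.67 in Double (adjusted p = 0.00431). ZFHX3 (ATBF1) fell by 0.90 in BRM (adjusted p = 0.00381) and by 1.17 in Double (adjusted p = 0.000163).

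Among 6 tested genes of 7 that are active in fetal liver and silenced with AFP, 1 rose and 1 fell in BRG1, 1 rose and 2 fell in BRM, and 2 fell in Double (medians −0.09, 0.27 and −0.52). GPC3, a cell-surface proteoglycan and tumour marker, fell with AFP by 1.06 in BRG1 (edgeR, adjusted p = 0.00106) and by 0.86 in Double (adjusted p = 0.00424). The oncofetal RNA-binding proteins differed: IGF2BP1 rose by 0.67 in BRG1 (adjusted p = 0.00669) and fell by 0.71 in BRM (adjusted p = 0.0131), and IGF2BP3 rose by 0.98 in BRM (adjusted p = 0.00723). LIN28B, a blocker of let-7 maturation, fell by 1.27 in BRM (edgeR, adjusted p = 0.00184) and by 0.59 in Double (adjusted p = 0.0474).

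The list of receptors, chaperones and binding partners of albumin and the vitamin D binding protein had 8 tested genes of 10. In BRG1 3 fell, in BRM 2 rose, and in Double 2 fell (medians −0.67, 0.34 and −0.50). AMN (amnionless, partner of cubilin in protein uptake) fell by 1.51 in BRG1 (edgeR, adjusted p = 0.00930) and rose by 1.93 in BRM (adjusted p = 0.00484). HSPA5 (BiP, the chaperone of the endoplasmic reticulum) fell by 1.03 in BRG1 (adjusted p = 0.0102) and by 1.21 in Double (adjusted p = 0.00391). The third that fell in BRG1 was CALR (calreticulin), named after its value was seen, by 0.85 (edgeR, adjusted p = 0.0285). B2M, the light chain of the neonatal Fc receptor that recycles albumin, rose by 0.67 in BRM (adjusted p = 0.0183), and SPARC, a matrix protein that binds albumin, fell by 1.05 in Double (adjusted p = 0.0124).

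Of 6 tested genes of 7 that make, degrade or sense vitamin D, the ligand of the GC product, 1 changed: CYP24A1, the hydroxylase that inactivates vitamin D, rose by 1.92 ± 0.59 in BRG1 (edgeR, adjusted p = 0.0286). None passed in BRM or Double (medians 0.18 and −0.08).

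The genes around the cluster moved in different directions. Of 20 genes on chromosome 4 around the members, 6 were tested, 13 stayed under 0.5 CPM in every library and 5 of those had 0 counts throughout. Among the tested genes 1 rose in BRG1, 2 fell in BRM, and 1 rose and 1 fell in Double (medians 0.07, −0.28 and −0.40). AREG (amphiregulin, a growth factor) rose by 2.23 ± 0.28 in BRG1 (edgeR, adjusted p = 7.58e-05) and fell by 2.94 ± 0.34 in BRM (adjusted p = 0.000119), the reverse of the ALB signs. CXCL8 (interleukin 8) fell by 3.32 in BRM (edgeR, adjusted p = 0.00168) and fell by 3.47 in Double (adjusted p = 0.000275), and MTHFD2L rose by 1.01 in Double (adjusted p = 0.0433). ANKRD17 stood at −0.21, −0.02 and −0.30 in BRG1, BRM and Double, COX18 at −0.33, −0.21 and −0.50, and EREG (epiregulin) at 0.36, −0.35 and −1.25, none of which passed.

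**Figure D5:**
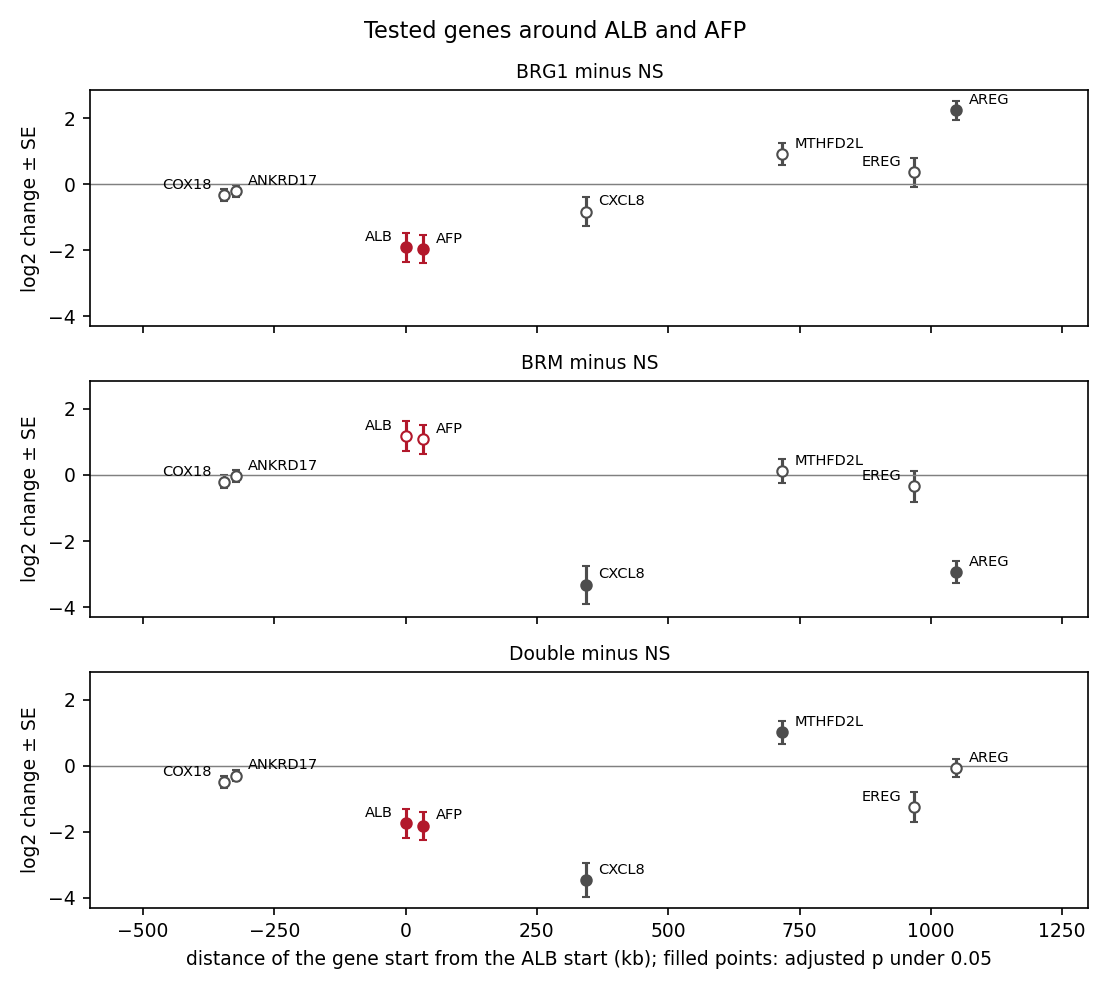
Log2 fold changes against NS of ALB, AFP and the 6 tested neighbours on chromosome 4, 1 panel for each hairpin group, with SE as bars, by distance of each gene start from that of ALB in kb; filled points passed the test. AREG runs from 2.23 in BRG1 to −2.94 in BRM, opposite to ALB and AFP, and COX18 and ANKRD17 stay within 0.5 of 0.

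Markers of other cell types were measured beside these values. The summed level of 5 cholangiocyte markers was 1022 to 1504 CPM in NS, 2878 to 5013 in BRG1, 515 to 1027 in BRM and 1294 to 2774 in Double; 1 of 4 tested rose in BRG1 (KRT19, by 1.96; edgeR, adjusted p = 0.00213), and SOX9 fell in BRM by 0.88 (adjusted p = 0.0216) and in Double by 0.66 (adjusted p = 0.0388). The 5 stromal markers summed to 13.3 to 64.3 CPM in NS, 35.6 to 239 in BRG1, 11.8 to 18.7 in BRM and 10.7 to 34.4 in Double. COL1A1, the 1 tested, made up most of that sum (126 ± 103 CPM in BRG1 and 36.35 ± 25.05 in NS, SD, n = 4 each) and was not called. No other stromal marker averaged above 0.2415 CPM in any group. The summed level of the 6 endothelial and blood markers stayed between 4.92 and 15.02 CPM in all libraries. PECAM1 was lower in Double by −0.70 on the log2 scale (edgeR, adjusted p = 0.0414). CFTR was at 0 in BRM and Double, LUM at 0 in NS, BRM and Double, and HBB at 0 in BRG1, BRM and Double. The cholangiocyte sum was thus above every NS library in BRG1, where ALB and AFP were low, and overlapped NS in BRM and Double; KRT19 made up most of it (3620 ± 1045 CPM in BRG1 and 933 ± 276 in NS, SD, n = 4 each), and SOX9 and EPCAM stood at 0.10 and −0.29 against NS in BRG1, neither of which passed. The part of these markers in the ALB and AFP levels was not tested.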

How the data were processed

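The deposited table gives estimated counts as whole numbers, 1 row per gene symbol and 1 column for each of 15 HepG2 libraries, without normalization. The submitters' processing notes name GRCh38, kallisto and DESeq2; for their versions, annotation, strand setting and rounding, nothing is given in the sources used here. Kallisto divides reads shared by similar transcripts, so the share of 31-base stretches unique to each member was checked in GENCODE v29. The authors' 3 comparison tables hold, per the file headers, a mean normalized count (a signal), log2 fold changes and their standard errors, a score (the Wald statistic) and the p-value before and after adjustment. Of the 35012 symbols, 33629 matched a GENCODE v29 name.

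Counts were used as deposited. Genes passing filterByExpr on the group (14621) were fitted in edgeR 4.0.16 under R 4.3.3 with TMM factors and robust quasi-likelihood, all 15 libraries in 1 fit, and p-values were Benjamini-Hochberg adjusted over all of them; genes under 0.05 are called. Tests are two-sided, and standard errors were derived from the estimate and its F statistic. CPM are TMM-scaled. Library sets were compared in a fit with a mean for each group and set. AFM and GC were tested over libraries by exact permutation of CPM, a test added after the data were seen. The script was tested on simulated data. Alternatives were other scalings, filters, DESeq2 1.42.0, limma 3.58.1 voom, library sets, a replicate block and leaving out each library.

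Replicate numbers were taken to pair groups where the deviations of every same-numbered pair had a correlation over 0.1. This was so for NS with BRG1 (0.427 to 0.565), NS with Double (0.179 to 0.454) and BRG1 with BRM (0.104 to 0.532). Deviations were taken from group means, so the rule cannot tell pairing by number from the split of the library sets. The same-numbered library correlated best for 2 of 4 in NS with BRG1, 2 of 4 in NS with Double and 2 of 3 in BRG1 with BRM. The main fit holds no such pairing. Named genes are the 4 members, SMARCA4, SMARCA2, every tested neighbour, up to 4 called genes per list by smallest adjusted p, and the 5 genes nearest to ALB and to AFP by correlation; HNF4A, NR5A2 and CALR were added after their values were seen, to complete small counts. The cell type markers EPCAM, COL1A1, CFTR, LUM and HBB were named from their values, outside this rule. The members and the gene lists were chosen with earlier results of these data known, so their counts are no independent evidence of direction. Some genes of the lists are counted but not reported here by name.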

Additional observations from a re-analysis of the deposited data

Results flagged for a closer look

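Double library 3 stood apart from the other 3 of its group, at 1383 CPM for ALB and 799 CPM for AFP, each the lowest value of the group. Without it the call of lower ALB and AFP in Double still passed. In the BRG1 group the highest GC value, 0.0435 CPM in library 3, is a single count. These came from 15 groups of 4 libraries examined for a value far from the rest. For continuous, normally distributed values chance alone gives about 1 in 20 such groups. That rate does not hold for AFM and GC, where a single count beside 0 in all other libraries is always flagged.

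The difference of BRG1 from NS was not the same in the library sets for ALB, by 1.63 on the log2 scale between libraries 3 and 4 and libraries 1 and 2. The difference of Double from BRG1 changed between the sets by −2.40 for ALB and −1.90 for AFP. The AFP to ALB ratio of BRG1 lay above that of NS by 0.66 on the log2 scale in libraries 1 and 2 and below it by −0.38 in libraries 3 and 4, in every library. The Double ratio did likewise, at 0.29 and −0.22. The change of direction between the sets was not tested, and within a set 2 libraries against 2 are too few for the permutation test to pass.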

How the results depend on the processing

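Lower ALB and AFP in BRG1 and in Double, against NS and against BRM, kept their direction and passed under every alternative run, including the replicate block (ALB −2.05 and AFP −2.04 in BRG1 minus NS). Leaving out each library in turn, ALB ran from −2.37 to −1.68 and AFP from −2.39 to −1.75 in BRG1 minus NS. The higher BRM values passed with the replicate block (ALB 1.36, AFP 1.34), with a term for the library sets (1.32 and 1.31), in libraries 1 and 2 alone (1.51 and 1.71) and, for ALB, in a fit of the 2 groups only (1.13). Double minus BRG1 passed in libraries 1 and 2 (ALB 1.69, AFP 1.31), changed sign in libraries 3 and 4 (−0.72 and −0.59), and ran from −0.12 to 0.58 for ALB and −0.11 to 0.53 for AFP when each library was left out, below 0 without BRG1 library 1 or 2. The ALB interaction was 0.17 in libraries 1 and 2. The log2 AFP to ALB ratio against NS changed sign in libraries 1 and 2 for BRM (0.17) and in libraries 3 and 4 for BRG1 (−0.38) and Double (−0.22), and without single libraries ran from −0.17 to 0.21 for BRM and −0.092 to 0.15 for Double. The AFM difference of BRM from NS was 0.161 CPM in libraries 3 and 4. The causes were not tested. Within a set the permutation tests of AFM, GC and the AFP to ALB ratio cannot pass, since 2 libraries against 2 give at least 0.333.

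Apart from leaving out libraries, genes called ranged from 2737 to 5720 in BRG1 minus NS (3284 as reported), 1002 to 4683 in BRM minus NS (2035), 2656 to 5646 in Double minus NS (3165), 3863 to 7659 in BRG1 minus BRM (4958), 1179 to 3981 in Double minus BRG1 (1582), 2120 to 5715 in Double minus BRM (2787) and 56 to 1619 in the interaction (73). Leaving out 1 library gave 2384 to 3454 in BRG1 minus NS, 2316 to 3325 in Double minus NS, 3929 to 4990 in BRG1 minus BRM and 1951 to 2799 in Double minus BRM, and moved BRM minus NS to 959 (without BRM 2), Double minus BRG1 to 1038, 1014, 946 and 934 (without BRG1 1, BRG1 2, Double 1 and Double 2) and the interaction to between 38 and 166. For BRM and NS, whose numbers did not pair by the rule used, 2 of 3 libraries correlated best with their own number. AFM and GC rest on at most 27 and 14 counts in a library.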
